A study of Homo sapiens with 13 samples.

Results

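The Integrator complex subunits described here are INTS1 to INTS10, a set list of genes looked up by name among the gene symbols of the deposited 3’ end lists. INTS12 is also present under its own symbol and is among the other Integrator genes below. All 10 had reads, and they account for 10 of 14575 genes, 141 of 211765 3’ ends and 3431 of 48144240 reads. The reads come from 3’ READS, a method that sequences the last nucleotides of poly(A) RNA and so marks where each mRNA was cleaved and polyadenylated. The cells were HEK293 Flp-in T-REx, a human embryonic kidney line with a single integration site for an inducible gene. All libraries came from cells in which doxycycline at 2 µg/ml induced an α-amanitin resistant Rpb1 with an Avitag, the largest subunit of RNA polymerase II (Pol II), from an integrated pcDNA5 plasmid, and in which α-amanitin at 2.5 µg/ml for 42 hr then blocked the cells’ own Pol II. The Rpb1 was wild-type in 5 libraries and carried the R749H substitution, which slows elongation, in 4 libraries. The labels give 24 hr of doxycycline before α-amanitin, and the methods of the study give a shorter time for these libraries. Each form of Rpb1 is represented by its own cell line, so a difference between the lines that is not due to the substitution cannot be told apart from one that is, and p-values measure the spread between libraries.

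Integrator associates with Pol II near promoters and carries an RNA endonuclease, INTS11, and a protein phosphatase, PP2A. The endonuclease cleaves the nascent 3’ ends of small nuclear RNAs (snRNAs), which are not polyadenylated, and also the nascent RNA of paused Pol II at many protein-coding genes. The phosphatase counteracts the kinases that release paused Pol II into elongation. The subunits are grouped below by module. INTS1, INTS2 and INTS7 belong to the backbone. INTS5, INTS6 and INTS8 hold the phosphatase. INTS4 and INTS9 form the cleavage module with INTS11. INTS10 belongs to a peripheral module, and INTS3 is also a subunit of the SOSS complex, which binds single-stranded DNA in the response to breaks.

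The mRNAs of these genes are themselves cleaved by the canonical machinery, and the sequences just upstream of the 3’ ends are shown first because every value below is a count of reads at such ends. Each line gives the 30 nt of the sense strand that end at the 3’ end (GRCh37, the build of the deposited files), with the poly(A) signal hexamer nearest the canonical form in capitals. The set holds the most used end of INTS1, INTS3, INTS4, INTS5 and INTS7, the second end of INTS5, and the top ends of the other 2 sites of INTS7 that carried enough reads to be compared. INTS1 lies on the minus strand at chr7:1509913-1509942, INTS3 on the plus strand at chr1:153746526-153746555, and INTS4 on the minus strand at chr11:77589768-77589797. The INTS5 ends are on the minus strand at chr11:62414329-62414358 and chr11:62414321-62414350. The INTS7 ends are on the minus strand at chr1:212115065-212115094, chr1:212114692-212114721 and chr1:212113747-212113776. Names are followed by the distance from the stop codon in nt.
INTS1 300: ctggttttgAATGAAacgacctgaactgtc
INTS3 809: ttaaatgacAATAAAacaagccagaatgtc
INTS4 227: tcctgtccacAATAAAgttgagaaaacacc
INTS5 163: ttttttttctaAATAAAatttgccaacttg
INTS5 171: ctaAATAAAatttgccaacttgagaaaacc
INTS7 101: ggaataagtATTAAAgttacagtgtagttc
INTS7 474: aaataAATAAAtacattttgtctgaaaaat
INTS7 1419: ttcctttttaAATAAAtatctgtttctttg

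The 2 INTS5 ends lie 8 nt apart behind a single AATAAA, which ends 13 nt upstream of the first and 21 nt upstream of the second. INTS1, the most abundant member, has neither AATAAA nor ATTAAA in its window, but AATGAA at 15 nt from its end. Over the 10 most used ends, 1 per gene, 7 held AATAAA, 1 held ATTAAA (INTS8), 1 held TATAAA (INTS2) and 1 held AATGAA (INTS1). The search covered the sense strand for AATAAA, then for ATTAAA, then for AGTAAA, then for TATAAA, then for CATAAA, then for GATAAA, then for AATATA, then for AATACA, then for AATAGA, then for ACTAAA and then for AATGAA, and took the first in this order and the last copy in the window. Among the most used ends of all 9494 genes tested for expression, 65.1% had AATAAA by the same order, 16.3% ATTAAA, 2.33% TATAAA and 0.485% AATGAA. Counted wherever they occur in the window, ATTAAA was in 18.1%, TATAAA in 4.42% and AATGAA in 2.48%. All 10 most used ends of the members were within 4 nt of the end of an annotated transcript (GENCODE), and the 30 nt before each of them matched the chromosomes at 1 place. INTS4 and INTS6 have annotated pseudogenes, whose sequence is not identical to these windows.

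The 10 mRNAs differed in how many 3’ ends they used. INTS1 was the most uniform, with 96.5% of its 1388 reads at 1 nucleotide 300 nt past the stop codon, followed by INTS9 with 88.2% of 415 reads at 483 nt. INTS3 had 75.5% of 310 reads at 809 nt, INTS4 had 71.5% of 432 reads at 227 nt, and INTS5 had 59.8% of 189 reads at 171 nt. INTS7 was the most dispersed of the better covered members, with 13 major 3’ ends, each at 5% or more of the most used end, and 25.8% of 507 reads at its most used end. The remaining members had 24 to 73 reads in all. INTS2, INTS6 and INTS8 spread these over many ends. The most used end held 35.0% of 40 reads at 2183 nt for INTS2, 34.0% of 53 reads at 524 nt for INTS6 and 32.9% of 73 reads at 79 nt for INTS8. At so few reads, an end with 1 read can count as major, as at 359 nt in INTS2. Of all reads of the members, 98.0% fell within an annotated UTR, 36 of the 141 ends lay past the annotated gene and 2 lay in an intron.

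**Figure D1:**
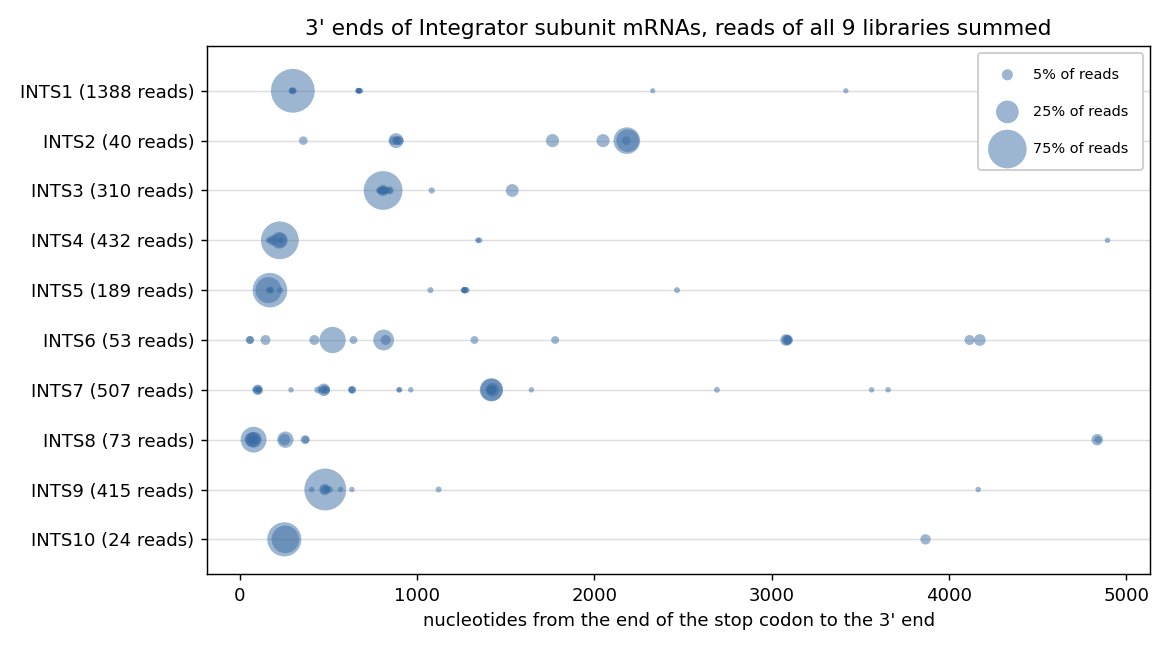
Position of every 3’ end of the 10 genes, as nt from the stop codon, with a circle whose area grows with the share of the gene’s reads from all 9 libraries at that end. INTS1, INTS9 and INTS10 have 1 large circle or a pair that overlaps, and INTS2, INTS6 and INTS7 are spread over sites far apart.

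The libraries held 2479851 to 10135014 reads within 5 kb of a stop codon in wild-type and 3863468 to 6475987 in R749H. R749H replicate 3 stands apart, with 41033 3’ ends where the other libraries have 73112 to 112834, and with 6.602% of ends at a single read where the others have 30.05 to 36.2%. Several results are also given without it. Levels are given as reads per 1 M reads of the library after TMM factors (RPM). The correlation of log2 RPM between libraries was 0.916 to 0.983 among wild-type and 0.892 to 0.966 among R749H libraries. Reads at the 3’ end of POLR2A, which encodes Rpb1, were at 60.5 to 125 RPM in wild-type and 253 to 520 in R749H. These are reads at the chromosomal gene, and whether the induced plasmid contributes to them was not tested. Of 8 genes listed as markers of HEK293 cells, 7 had reads, KRT18, KRT8 and VIM had enough reads to be tested, and NEFL had none. KRT18 was at 446 ± 110 RPM in wild-type and 586 ± 177 in R749H (SD), KRT8 at 51.1 ± 5.93 and 71.2 ± 20.2, and VIM, the one called, was lower in R749H at 99.9 ± 25.04 against 61.8 ± 6.11 (limma adjusted p = 0.0194, and 0.0262 without R749H replicate 3). Below the filter, PAX2 was at 1.28 to 4.08 RPM in wild-type and 0 to 0.869 in R749H, and EYA1 at 0.640 to 1.79 and 0 to 0.274, both without overlap, and LHX1 and NEFM had 9 and 2 reads in all. Without R749H replicate 3, PAX2 passed the filter and was called lower in R749H, at -2.46 ± 0.75 on the log2 scale (limma adjusted p = 0.0269). The part of these differences in the results below was not tested. Of 12 markers of leukocytes, hepatocytes, fibroblasts and endothelium, 6 had reads, and defining markers such as PTPRC, COL1A2, DCN, PECAM1 and CDH5 had none. Their summed level was 0 to 1.96 RPM in wild-type and 1.61 to 4.38 in R749H. Of this, APOA1 was 0.611 ± 0.473 in wild-type and 2.77 ± 1.43 in R749H, and its part was not tested either.

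Of the 10 members, 6 had enough reads for the test of gene expression, 2 of them rose and 1 fell in R749H cells. INTS1, a backbone subunit, rose 2.05-fold, INTS5, a phosphatase module subunit, rose 2.59-fold, and INTS3, also a SOSS subunit, fell by 3.09 on the log2 scale. INTS4, INTS7 and INTS9 did not pass the threshold, and INTS2, INTS6, INTS8 and INTS10 had too few reads. Among all 9494 genes tested, 1038 (10.9%) were called higher and 1227 (12.9%) lower in R749H, at an adjusted p of 0.05 with limma. The values of the 5 wild-type and 4 R749H libraries did not overlap for the same 3 members, against 1886 genes (19.9%) of those tested. The median log2 change was -0.53 over the 6 members and -0.07 over all genes tested, and 4 of the 6 changes were below 0. These changes are relative to TMM factors. With the authors’ scaling alone, the median of all genes was lower by 0.34 on the log2 scale and 14.1% of the calls were higher in R749H, against 45.8% with TMM. Without R749H replicate 3, the same 3 members were called.

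**Figure D2:**
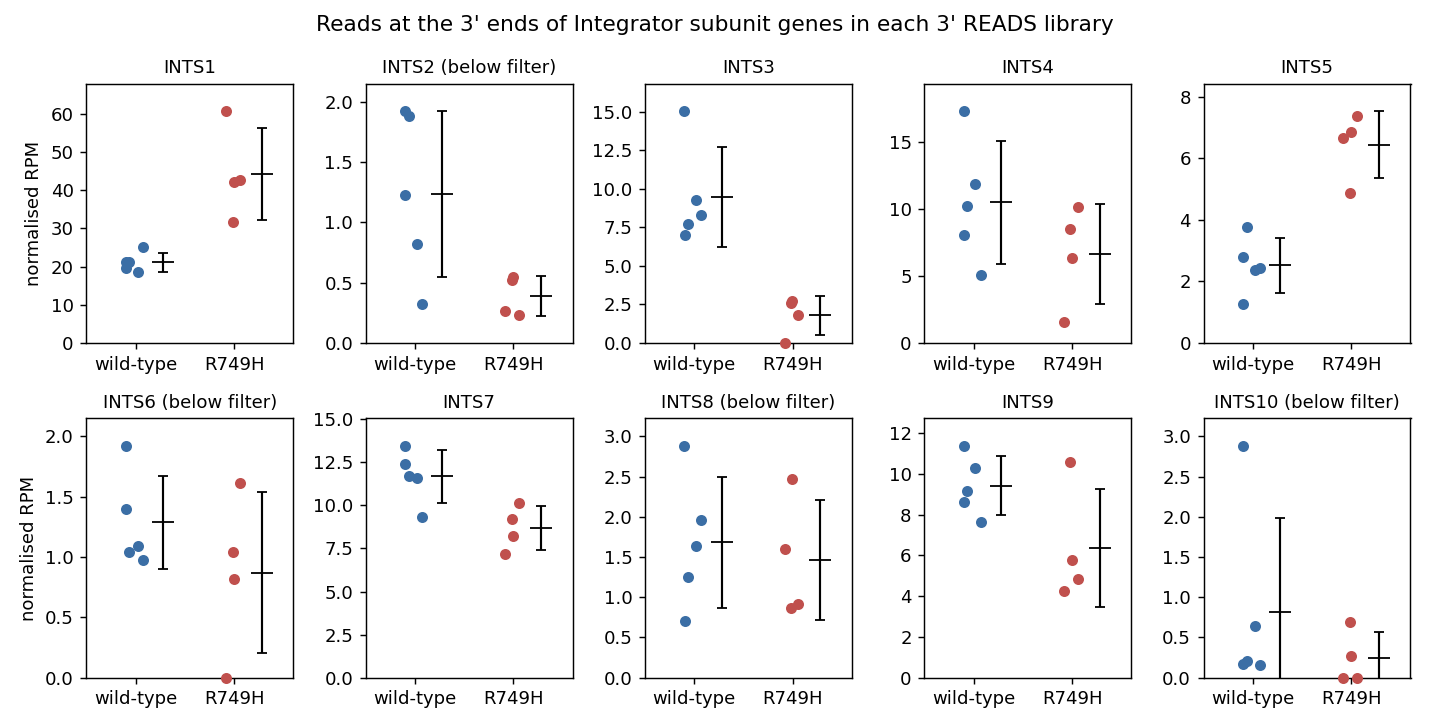
RPM of each member in every library (points), with the mean and SD of each group (bars) and an axis of its own for each gene, starting at 0. The R749H points lie above all wild-type points for INTS1 and INTS5 and below them for INTS3, and overlap with them for the other 7 genes.

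In the backbone, INTS1 had 21.1, 21.1, 25.1, 18.6 and 19.8 RPM in wild-type replicates 1 to 5, and 31.8, 42.2, 60.7 and 42.6 in R749H replicates 1 to 4. Every R749H library was thus above every wild-type library, and the highest value was that of R749H replicate 3. The log2 change was 1.04 ± 0.21 (SE; limma adjusted p = 0.00238) and 0.90 without that library (adjusted p = 0.00639). INTS7 had 13.4, 11.7, 9.30, 11.6 and 12.4 in wild-type and 9.22, 8.22, 7.19 and 10.1 in R749H. The groups overlap in the lowest wild-type and the highest R749H library, and the log2 change of -0.42 ± 0.23 did not pass (adjusted p = 0.189). INTS2, the other backbone subunit, was read 6, 9, 2, 9 and 7 times in wild-type and 3, 2, 1 and 1 times in R749H. These counts are below the filter, and a fit with no filter gave a log2 change of -1.33 ± 0.64 (adjusted p = 0.175).

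In the phosphatase module, INTS5 had 1.28, 3.76, 2.45, 2.37 and 2.80 RPM in wild-type and 4.87, 6.85, 6.66 and 7.38 in R749H. All R749H values were above all wild-type values, although the reads behind them were few, at 4 to 26 per wild-type and 25 to 32 per R749H library. The log2 change was 1.37 ± 0.36 (adjusted p = 0.0127) and was 1.38 without R749H replicate 3 (adjusted p = 0.0158). INTS6 was read 6, 5, 6, 12 and 8 times in wild-type and 6, 3, 0 and 7 times in R749H. INTS8 was read 9, 6, 12, 18 and 4 times in wild-type and 5, 9, 6 and 4 times in R749H. For both genes the groups overlap, and the fit with no filter gave log2 changes of -1.08 ± 0.76 (adjusted p = 0.371) for INTS6 and -0.20 ± 0.57 (adjusted p = 0.836) for INTS8. The 0 reads of INTS6 in R749H replicate 3 allow up to 0.799 RPM, by a limit of 3 reads for a count of 0. This limit allows for counting error alone.

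In the cleavage module, INTS9, the inactive homologue that pairs with the INTS11 nuclease, had 8.64, 9.19, 7.66, 10.3 and 11.4 RPM in wild-type and 10.6, 5.75, 4.26 and 4.84 in R749H. Of the R749H libraries, 3 were below all wild-type libraries and replicate 1 was within their range. The log2 change of -0.64 ± 0.29 did not pass (limma adjusted p = 0.119). With R749H replicate 1 left out it was -0.90 and passed (adjusted p = 0.0242). With R749H replicate 3 left out instead, which holds the lowest INTS9 value, it was -0.46 and did not pass (adjusted p = 0.280). In 8 of the 9 fits with 1 library left out, INTS9 was not called. INTS4, the scaffold of the same module, had 17.3, 10.2, 5.06, 11.8 and 8.04 in wild-type and 8.52, 6.30, 1.597 and 10.1 in R749H. The groups overlap, and the log2 change was -0.82 ± 0.46 (adjusted p = 0.206). The lowest of the 9 INTS4 values, from 6 reads, was that of R749H replicate 3, and without that library the log2 change was -0.22 (adjusted p = 0.687).

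INTS3 had 15.03, 7.72, 8.32, 9.29 and 6.99 RPM in wild-type and 2.61, 2.74, 0 and 1.84 in R749H. In reads this was 47, 37, 51, 102 and 40 against 15, 10, 0 and 8. All R749H libraries were below all wild-type libraries, and the library with no read, R749H replicate 3, allows up to 0.799 RPM. This limit allows for counting error alone, and that library had few ends at a single read (6.602%). The log2 change was -3.09 ± 0.76 (adjusted p = 0.00814), and its size depended on how that library was treated. It was -1.88 without R749H replicate 3 (adjusted p = 0.000743), and -2.33 with edgeR on the recovered reads (adjusted p = 0.00108). Group means were 9.47 ± 3.22 (SD, n = 5) and 1.80 ± 1.26 (SD, n = 4). INTS10 was at the limit of detection, with 9, 1, 1, 7 and 1 reads in wild-type and 4, 1, 0 and 0 in R749H, and the fit with no filter gave -1.27 ± 0.84 (adjusted p = 0.338).

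Since 1 read is counted per mRNA 3’ end, levels of different genes need no division by length. Ends more than 5 kb past the stop codon, and reads whose As are encoded in the genome, are not counted. A gene that uses such ends is therefore counted too low, by an amount that was not tested. The annotated INTS6 gene runs to position 51928213 of its chromosome, beyond this limit from its stop codon at 51939888. In wild-type cells, INTS1 was the highest at 21.1 ± 2.46 RPM (SD, n = 5), above every value of the next gene. INTS7 (11.7 ± 1.53), INTS4 (10.5 ± 4.57), INTS3 (9.47 ± 3.22) and INTS9 (9.43 ± 1.44) followed, and neighbours in this order overlapped. INTS5 was lower at 2.53 ± 0.89, below every value of INTS9, and INTS8 (1.69 ± 0.82), INTS6 (1.29 ± 0.39), INTS2 (1.23 ± 0.69) and INTS10 (0.81 ± 1.17) each overlapped with the gene before. In R749H cells INTS1 was again the highest at 44.34 ± 11.996 (n = 4), but INTS5, at 6.44 ± 1.09, overlapped with INTS7, INTS4 and INTS9, at 8.69 ± 1.27, 6.64 ± 3.71 and 6.37 ± 2.89. INTS3, at 1.80 ± 1.26, was below every value of INTS9 and overlapped with INTS8, at 1.46 ± 0.75. The sum over the 10 members was 61.3 to 86.4 RPM in wild-type and 70.8 to 82.3 in R749H. In mean level over the 9 libraries, INTS1 was at the 68.9th percentile of the genes tested and the other 5 tested members were between the 20.0th and the 43.7th. Such values measure a share of the poly(A) RNA, and fewer cells with a transcript and fewer transcripts per cell cannot be told apart.

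The position of polyadenylation in cells with slow and wild-type Pol II could be compared at 3 members by the downstream share, INTS3, INTS5 and INTS7. By the share of single 3’ ends it could be compared at 24 ends, of INTS3, INTS4, INTS5, INTS7 and INTS9. None of the 3 genes and none of the 24 ends was called with limma. Such calls were rare among all genes as well. Reads past the median position of all libraries were counted first. By their share, 2 of 5985 genes (0.0334%) were called higher and 4 (0.0668%) lower in R749H. Before adjustment, 609 genes had a limma p under 0.05, none of them a member. The downstream share was lower in R749H, so further upstream, at 3582 genes and higher at 2403. Its median log2 odds difference was -0.10. For single 3’ ends, 5 of 35434 (0.0141%) were called higher and 8 (0.0226%) lower, and 2784 had an unadjusted p under 0.05. Among the members’ ends, that was 1, the INTS3 end 808 nt past the stop codon, with an adjusted p of 0.612. INTS1 was in neither test. Its single major end held 92.4 to 99.1% of its reads in wild-type and 96.1 to 97.8% in R749H. Of its pooled reads, 1.87% lay downstream of the median, where the first test needed 5% on each side. INTS4, at 1.15%, and INTS9, at 3.76%, were left out of that test by the same rule.

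When 3’ ends no more than 24 nt apart are joined, INTS7 has 3 sites at 5% or more of its most used site. The distal site at 1419 nt held 71.4, 71.4, 77.2, 73.2 and 78.9% of INTS7 reads in wild-type and 66.0, 83.3, 59.3 and 63.6% in R749H. In R749H, 3 libraries were below and replicate 2 was above all wild-type libraries, and the log2 odds differed by -0.40 ± 0.52 (adjusted p = 0.760), and by -0.20 ± 0.51 without R749H replicate 3. The middle site at 474 nt held 5.63 to 13.4% in wild-type and 18.9, 13.3, 40.7 and 9.09% in R749H, with a difference of 0.94 ± 0.61 (adjusted p = 0.521). The highest of these, 11 of 27 reads, is from R749H replicate 3. All 11 were at the end 481 nt past the stop codon, which had 18 reads over all libraries, and 0 were at 474 nt. Without R749H replicate 3 the difference at the site was 0.42 ± 0.51 (adjusted p = 0.778). The proximal site at 101 nt held 5.26 to 14.3% and 0 to 15.9%, and its difference was -0.87 ± 0.72 (adjusted p = 0.613), or -0.19 ± 0.58 without R749H replicate 3, which had none of its reads there. For single nucleotides, the share of INTS7 reads downstream of the pooled median at 1419 nt was 45.1 ± 5.22% in wild-type and 38.5 ± 5.597% in R749H (SD), a log2 odds difference of -0.38 ± 0.37 (adjusted p = 0.716).

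In INTS5, the end at 171 nt held 50, 61.1, 66.7, 84.6 and 81.2% of the reads in wild-type and 32.1, 60, 60 and 50% in R749H. The end at 163 nt held 50, 38.9, 33.3, 7.69 and 12.5% in wild-type and 50, 24, 40 and 46.9% in R749H. The groups overlap at both ends, with 4 to 32 reads per library behind the shares, and the log2 odds differed by -1.12 ± 0.66 at 171 nt (adjusted p = 0.686) and by 0.85 ± 0.75 at 163 nt (adjusted p = 0.783). Both INTS5 ends lie within 200 nt of the annotated GANAB gene, on the same strand. Reads downstream of 171 nt were few, at 2.79 ± 3.85% in wild-type and 8.35 ± 7.97% in R749H (SD). Their log2 odds differed by 0.38 ± 0.89 (limma adjusted p = 0.899). These further ends lie past the annotated INTS5 gene and also beside GANAB, and whether they belong to INTS5 was not tested.

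In INTS3, the most used end at 809 nt held 76.1 ± 8.12% of the reads in wild-type and 65.6 ± 15.03% in the 3 R749H libraries with reads (SD), with a log2 odds difference of -1.0 ± 0.61 (adjusted p = 0.690). The distal site at 1537 nt, within 200 nt of SLC27A3 on the same strand, held 6.64 ± 3.89% and 8.61 ± 7.47%. R749H replicate 3 has no INTS3 reads and enters these fits through the reads added alone, as equal odds, so that the fitted differences are not a measure of that library. Without it, the difference at 809 nt was -0.77 ± 0.61 (adjusted p = 0.818). The downstream share of INTS3 differed by 1.22 ± 0.61 (adjusted p = 0.512), and by 0.80 ± 0.56 without that library (adjusted p = 0.677). In INTS4, the most used end at 227 nt held 70.3 ± 5.67% and 79.3 ± 16.0%. With ends joined into sites, a second INTS4 site at 186 nt held 6.09 ± 3.78% in wild-type and 0.568 ± 1.14% in R749H, from 20 reads in all. The log2 odds differed by -1.41 ± 0.66 (adjusted p = 0.360), and by -1.83 ± 0.62 without R749H replicate 3 (adjusted p = 0.232). The most used end of INTS9 held 88.0 ± 2.44% and 89.6 ± 12.6%.

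**Figure D3:**
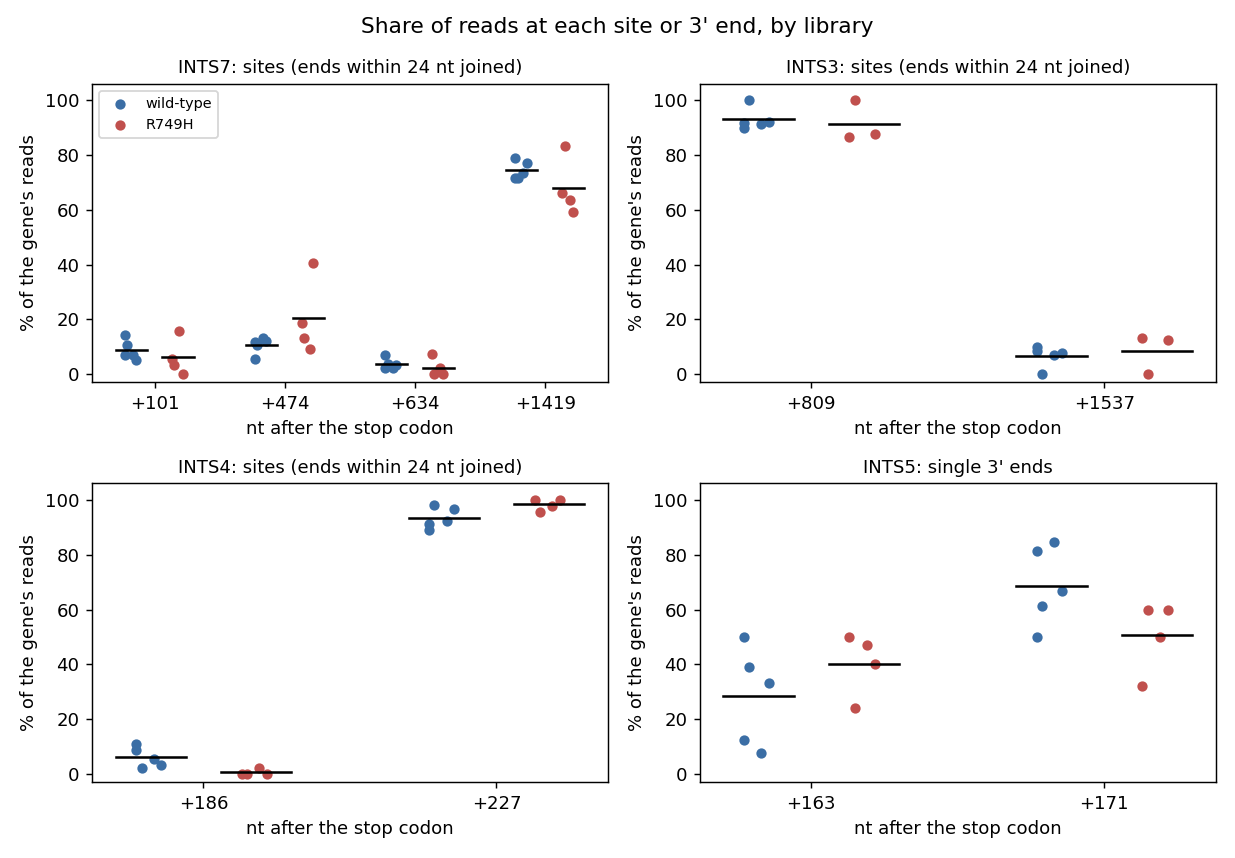
Percent of each gene’s reads at its sites (INTS7, INTS3, INTS4; 3’ ends within 24 nt joined, sites with 10 or more reads) or single 3’ ends (INTS5) in each library, against nt from the stop codon, with the group means as black lines. Wild-type and R749H points overlap at every position, and the R749H points of INTS7 at 474 nt are spread from 9.09 to 40.7%.

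Genes that work with these subunits were listed by name. Of 7 other Integrator genes (INTS11 to INTS15, INTS6L and BRAT1), 6 were tested and none was called, with a median log2 change of 0.03. INTS11, the nuclease of the complex, named CPSF3L in the files, was at 16.3 ± 5.88 RPM in wild-type and 9.75 ± 3.03 in R749H (SD), and its log2 change of -0.68 ± 0.34 did not pass (adjusted p = 0.159). Of 7 SOSS and PP2A partners, 6 were tested and 1 was called. This was PPP2CB, a catalytic subunit of PP2A, which rose from 25.96 ± 8.91 to 40.3 ± 5.56 RPM, a log2 change of 0.69 ± 0.24 (adjusted p = 0.0453). Its highest value, 48.2 RPM, is from R749H replicate 3, and without that library it was not called, at 0.63 ± 0.26 (adjusted p = 0.0888). NABP2, which pairs with INTS3 in SOSS, had a log2 change of 0.17 ± 0.27 (adjusted p = 0.684).

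In the homologous cleavage module of pre-mRNA 3’ processing, 1 of 3 genes was called. CPSF3, the nuclease that cuts pre-mRNA, fell from 137 ± 32.9 to 85.8 ± 28.9 RPM (log2 change -0.73 ± 0.24, adjusted p = 0.0394, and 0.0277 without R749H replicate 3). The median over CPSF3, CPSF2 and SYMPK was -0.65, the value of SYMPK. Without R749H replicate 3 the log2 changes were -0.84 for CPSF3, -0.37 for CPSF2 and -0.29 for SYMPK. None of the 5 tested of 6 pausing factors (NELF and DSIF subunits) was called, with a median of 0.20. Of 7 factors of snRNA promoters, 5 were tested and SNAPC2, a subunit of the activating complex at these promoters, fell from 30.4 ± 4.94 to 16.3 ± 4.42 RPM (log2 change -0.92 ± 0.22, adjusted p = 0.00814, and 0.0107 without R749H replicate 3). Over these lists, 3 of 25 genes tested were called, 1 higher and 2 lower, beside the 10.9% and 12.9% of all genes given above.

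**Figure D4:**
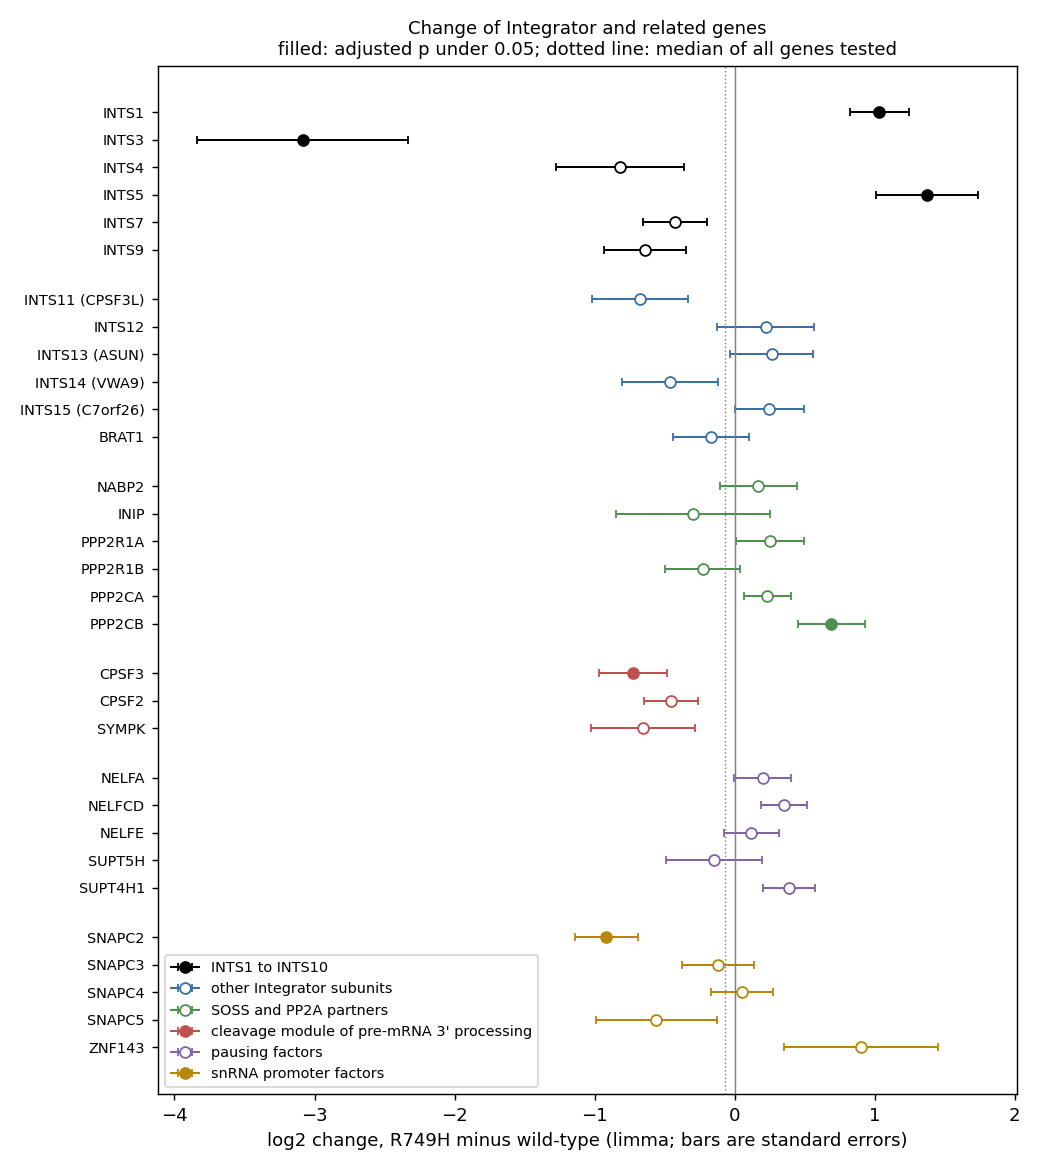
Log2 change of each tested member and listed partner gene in R749H against wild-type, with standard errors as bars, filled where the adjusted p is under 0.05. INTS1 and INTS5 are to the right of 0, INTS3 is the farthest to the left, and the dotted line marks the median of all 9494 genes tested.

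Genes with the most similar pattern over the 9 libraries, by Pearson’s r among up to 5591 genes with a mean of at least 50 reads, are given as a description, since r over the same libraries shares their depth and scaling. They were KDM5B, RAB1A and TNRC6C for INTS1 (r from 0.979 to 0.983), TMEM19, PDK2 and FAM127C for INTS3 (0.979 to 0.986), and RIPK4, ILK and EID2B for INTS5 (0.985 to 0.987). TMEM19 was at 30.7 RPM in wild-type and 2.85 in R749H.

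The changes of the 3 called members were set beside those of their neighbours on the chromosome. INTS1, on chromosome 7, has 40 tested genes within 5 Mb of its stop codon with a median log2 change of -0.20, of which 3 were called higher and 7 lower. INTS3, on chromosome 1, has 120 with a median of 0.03, of which 11 were called higher and 9 lower. INTS5, on chromosome 11, has 161 with a median of 0.11, of which 28 (17.4%) were called higher and 17 (10.6%) lower. INTS2 lies on chromosome 17, whose 612 other tested genes had a median of -0.44, and the 54 within 5 Mb of it had a median of -0.08. INTS8, INTS9 and INTS10 lie on chromosome 8, at a median of 0.02 over its tested genes. Within 5 Mb, INTS8 has 25 tested genes with a median of 0.04, of which 2 were called higher and 1 lower. INTS9 has 32 with a median of -0.15, of which 3 were called higher and 7 lower. INTS10 has 29 with a median of -0.06, of which 3 were called higher and 3 lower.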

How the data were processed

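Per the study's methods, the authors stripped random bases and leading Ts from the reads, shortened them and aligned them to hg19 with bowtie, with the first 30 nt free of mismatches. Reads whose As are encoded in the genome were dropped, and a 3’ end was given to a gene if it fell within 5 kb past its CCDS stop codon. The labels name Bowtie2 2.3.2, which the methods of the study give for the eNETseq reads. The deposited signal values are reads per 3’ end, which the authors set to a total of 7 M in each library. Division by the value of 1 read gave whole reads at 100% of values, within the rounding of the files. No most used end has an A as its last base, since such As cannot be told from the tail. No molecular identifiers are named, and limits set from reads allow for counting error alone.

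Reads were summed per gene symbol. Gene expression was tested with limma 3.58.1 (trend) in R 4.3.3 on log2 RPM with TMM factors, 0.5 prior reads and filterByExpr, over 9494 genes. The downstream share and the share of single major 3’ ends were tested with limma on log2 odds, with 0.5 reads added in proportion to depth. Genes needed 20 reads in the mean library, and 5% of reads on each side of the median or 2 major 3’ ends. A gene with no read in a library has equal odds there. Benjamini-Hochberg adjustment ran over all features of a test, with 0.05 as the threshold. Alternatives were run with edgeR 4.0.16 and DESeq2 1.42.0 on the recovered reads, with other scalings, filters, priors and site definitions, with the replicate number as a block and without each library. All tests were tried on simulated data. Annotation was GENCODE 44 lifted to GRCh37.

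All 10 members were named, with the most used 3’ end and any end past the threshold, the called genes of the partner lists, and the 3 genes most similar to each called member. Other ends, sites and partners were named after their values were seen. The members and lists were chosen with earlier results of these data known. The 2 tables of pooled replicates and the 4 eNETseq samples were not used here.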

Additional observations from a re-analysis of the deposited data

Results flagged for a closer look

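Of 31 groups of 4 or 5 libraries examined, 2 had 1 value far from the rest, where chance gives about 1 in 20. INTS3 was at 15.03 RPM in wild-type replicate 1, and at 6.99 to 9.29 in the other wild-type libraries. INTS10 was at 2.88 in wild-type replicate 1, from 9 reads, and at 0.163 to 0.637 in the other wild-type libraries. Wild-type replicate 1 is the library with the fewest reads, 2479851. Without it, the log2 change of INTS3 was -2.93 (limma adjusted p = 0.0220), against -3.09 with all libraries.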

How the results depend on the processing

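INTS1, INTS3 and INTS5 kept their direction and their call in every alternative in which they were tested, with log2 changes of 0.69 to 1.19, -3.69 to -1.88 and 1.04 to 1.53. Over left-out libraries, 3 to 4 members and 1520 to 2664 genes were called. With the authors’ scaling alone 5 members were called, since INTS7 (adjusted p = 0.0240) and INTS9 (0.0197) also passed, and with a mean of at least 50 reads 1 was called, since INTS3 and INTS5 were no longer tested. For the downstream share, 6 genes were called, 16 with division at the midpoint, 2 with no minimum of reads, 2 with the replicate block, 3 with replicates 1 to 4 without it (chosen after seeing the data) and 2 to 11 over left-out libraries. For single 3’ ends 13 were called, 6 in clusters of 4 nt, 39 with 0.1 reads added and 11 to 23 over left-out libraries. No member was called for either share under any of these. Some uncalled differences changed sign between fits. The downstream share of INTS5 was 0.38 with all libraries, -0.90 at the midpoint and -0.12 to 1.18 over left-out libraries. The INTS7 end at 1419 nt was 0.13 with all libraries, and -0.094 to 0.34 over left-out libraries. The cluster and the joined site that hold this end are wider units, at -0.37 and -0.40. The most used INTS9 end was 0.67, and -0.0071 to 1.42 over left-out libraries. The cause of these changes of sign was not tested.

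The replicate numbers did not pair the libraries (r of same-numbered deviations -0.07 to 0.05), and the replicate block called 2093 genes and the same 3 members for expression, and 9 single 3’ ends. Use of 3’ ends listed under 1 gene name alone was not run, since all 211765 are. Without R749H replicate 3, PPP2CB was no longer called.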
